A study of Mus musculus with 18 samples.

Results

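The genes described here belong to the plasminogen activator system and the tissue factor pathway in mouse bone marrow-derived macrophages (BMDMs): the protease gene Plau, its receptor Plaur, the inhibitor Serpinb2, tissue factor F3, coagulation factor F10 and the matrix protein gene Thbs1. They were chosen by name, with earlier results of these data known, so counts of members called describe these genes and are no test of the set. Each symbol matched 1 gene ID, so they are 6 of 56953 IDs in the count table. The test was run on 13068 genes that passed a filter on low counts, and all 6 genes passed it. F3 passed only through its stimulated groups, since its unstimulated libraries held 2 to 6 counts each.

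RNA was sequenced from BMDMs of RIPK1 T169A knock-in mice, which carry a threonine-to-alanine substitution in the kinase RIPK1, and of B6 mice (C57BL/6J). Cells of each genotype were given LPS/5z7 for 2 hours, LPS for 2 hours, or were left unstimulated, with 3 libraries in each of the 6 groups and 18 in all. LPS is bacterial lipopolysaccharide, the ligand of the receptor TLR4. The abbreviation 5z7 is commonly used for (5Z)-7-oxozeaenol, which inhibits the kinase TAK1, but the labels do not spell it out and give no dose, pretreatment time or vehicle for any group. All cells had grown for 7 days in 20% FBS and 30% conditioned medium of L929 cells, a fibroblast line that secretes M-CSF, on which macrophages depend.

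The protease urokinase, made from Plau, cleaves plasminogen to plasmin, the enzyme that dissolves fibrin clots and degrades matrix, and the receptor encoded by Plaur holds urokinase at the cell surface. SerpinB2, also called PAI-2, inhibits urokinase. Tissue factor, made from F3, binds factor VII and starts coagulation by activating factor X, the product of F10. Macrophages exposed to LPS are a known source of tissue factor, of PAI-2 and of the urokinase receptor. Thrombospondin 1, made from Thbs1, is a secreted glycoprotein that binds CD47 and CD36 and can activate latent TGF-beta.

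The libraries held 14.6 to 30.4 M counts each. Levels are given as CPM (counts relative to a library of 1 M) scaled by TMM, edgeR's correction for differences in library composition. All 7 macrophage markers were present, and they summed to between 31104 and 41340 CPM. In bulk RNA, fewer cells of a type and less RNA per cell cannot be told apart, and a count per gene does not show the T169A substitution itself. No label ties the 3 libraries of a group to different animals or dishes, so p-values measure the spread between these libraries, which may be technical. B6 unstimulated library 7 stood apart from the other 2 of its group. Its counts differed from theirs by 81.3 and 101 times the variance of counting alone, whereas the other replicate pairs differed by 2.89 to 51.8 times, so B6 results are also given without it where they changed.

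The 6 genes fell into distinct patterns, which the plot of levels by library shows. Plaur, Serpinb2 and F3 were high with LPS and much lower, though still above unstimulated cells, with LPS/5z7. Plau was already abundant in unstimulated cells, changed little with LPS, and was below the unstimulated level with LPS/5z7. F10 was higher than in unstimulated cells under both treatments, and Thbs1 was lower with LPS/5z7 than with LPS. No member differed between T169A and B6 cells by the test across all genes.

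**Figure D1:**
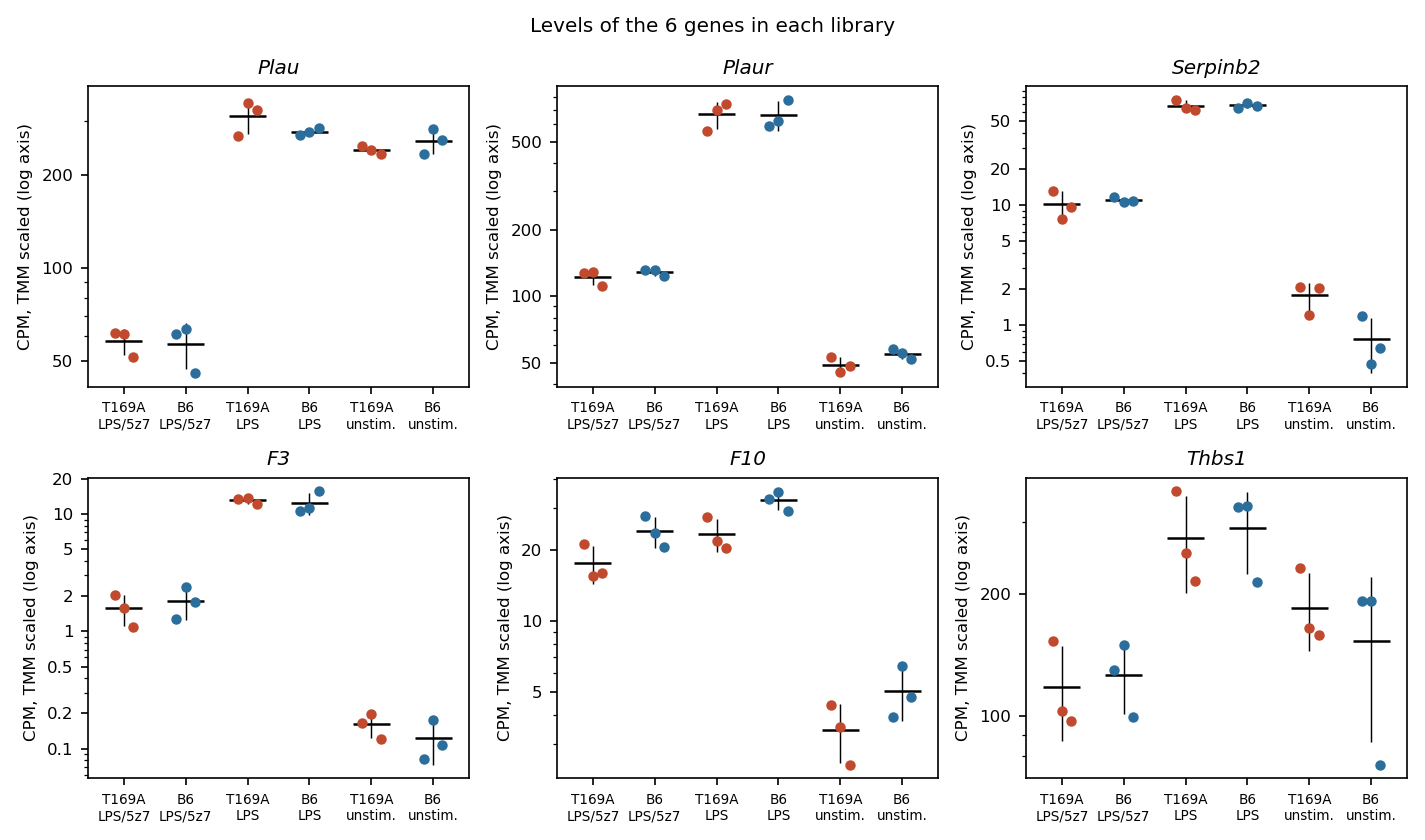
Level of each of the 6 genes in TMM-scaled CPM (y axis, logarithmic, a different range in each panel) in the 6 groups of 3 libraries, red for T169A and blue for B6. Each point is 1 library, the horizontal bar is the group mean and the vertical line is 1 SD to each side. Plaur, Serpinb2 and F3 are highest with LPS, Plau is lowest with LPS/5z7, and the T169A and B6 libraries overlap in most panels.

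Per kb of exon, which allows genes to be compared with each other, Plau was the most abundant of the 6 in unstimulated cells, at 102 ± 3.03 CPM per kb in T169A and 109 ± 10 CPM per kb in B6 cells (SD, n = 3 each). With LPS, Plaur came first at 255 CPM per kb in T169A and 253 CPM per kb in B6 cells, followed by Plau, Thbs1, Serpinb2, F10 and F3, and the libraries of neighbours in that order did not overlap in either genotype. In unstimulated cells the order was Plau, Thbs1, Plaur, F10, Serpinb2 and F3, where only Thbs1 and Plaur overlapped, and only in B6 cells. With LPS/5z7 the order was Plaur, Plau, Thbs1, F10, Serpinb2 and F3, and the neighbours Plau and Thbs1 overlapped in both genotypes. Serpinb2 thus stood above F10 with LPS and below it in the other conditions.

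The stretch just upstream of the transcription start was read for the members that RefSeq's promoter table holds, 4 of 6. Plau, which like 3 of these genes fell steeply with LPS/5z7, had no window, and neither did Thbs1. The windows therefore cannot be set against the response to LPS/5z7, and no link between them was tested. Each sequence is the 250 bases before a start on the + strand of build GRCm38.p6, at chr7:24462233-24462482 for Plaur, chr1:107511173-107511422 for Serpinb2, chr3:121723287-121723536 for F3 and chr8:13037058-13037307 for F10. Capitals mark matches to TGANTCA, the AP-1 motif, searched on both strands, which are the same search because the motif is its own reverse complement.
Plaur: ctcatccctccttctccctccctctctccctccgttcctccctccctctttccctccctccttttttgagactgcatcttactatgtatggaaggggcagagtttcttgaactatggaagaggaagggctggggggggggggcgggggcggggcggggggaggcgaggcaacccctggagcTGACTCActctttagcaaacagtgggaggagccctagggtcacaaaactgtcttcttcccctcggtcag
Serpinb2: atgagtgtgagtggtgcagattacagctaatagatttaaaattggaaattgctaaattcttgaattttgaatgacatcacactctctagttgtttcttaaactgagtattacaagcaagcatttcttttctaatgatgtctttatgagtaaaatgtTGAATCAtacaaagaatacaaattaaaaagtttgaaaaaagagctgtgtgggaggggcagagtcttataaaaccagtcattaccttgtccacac
F3: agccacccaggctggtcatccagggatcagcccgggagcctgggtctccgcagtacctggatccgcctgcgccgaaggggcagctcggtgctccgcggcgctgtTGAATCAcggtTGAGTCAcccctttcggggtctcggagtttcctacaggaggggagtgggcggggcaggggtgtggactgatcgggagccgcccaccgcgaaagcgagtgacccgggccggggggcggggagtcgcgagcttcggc
F10: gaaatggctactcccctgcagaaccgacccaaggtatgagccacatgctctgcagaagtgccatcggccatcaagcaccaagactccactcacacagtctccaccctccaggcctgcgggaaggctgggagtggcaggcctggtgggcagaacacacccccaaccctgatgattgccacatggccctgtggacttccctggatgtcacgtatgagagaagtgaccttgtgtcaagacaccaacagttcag
The AP-1 motif is bound by Fos and Jun proteins. It occurred once in the Plaur window, as TGACTCA ending 63 bases before the start, and once in the Serpinb2 window, as TGAATCA ending 88 bases before it. A second Serpinb2 window, for a start further downstream, holds the same match. The F3 window held 2 matches, TGAATCA and TGAGTCA, ending 140 and 129 bases before the start. The letters were not found in the F10 window, which says nothing of binding by the factor. Of all 32817 windows of this length, 2216 (6.75%) held a match. The NF-kB consensus GGGRNNYYCC (R is A or G, Y is C or T, N is any base), searched on both strands, was found in none of the member windows. It was found in 7.25% of all windows. Sites that depart from these letters were not searched, so its absence says nothing of binding by NF-kB. The cAMP response element TGACGTCA was likewise found in none, against 1.55% of all windows. The GC box GGGCGG was found 3 times each in the Plaur and F3 windows, with 32.7% of all windows holding it, and TATAAA was found in the Serpinb2 window, ending 24 bases before the start, with 12.4% of all windows holding it. These motifs share no base with the AP-1 matches here. The matches are a description of the letters and were not tested for binding.

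The first comparison asks how LPS changed the genes in each genotype. With edgeR's quasi-likelihood test, 5 members were higher with LPS than in unstimulated cells in each genotype and none was lower, at an adjusted p under 0.05 over all genes tested. F3 is among those called and entered the test only through its stimulated groups, so its call is not independent of the filter. Among all 13068 genes, 30.3% were higher and 31.5% lower in T169A cells, and 29.6% were higher and 33.5% lower in B6 cells. The median log2 fold change of the 6 was 3.26 in T169A and 3.13 in B6 cells, against −0.03 in T169A and −0.07 in B6 cells over all genes tested. The gene that did not pass was Thbs1 in T169A and Plau in B6 cells. With library size alone in place of TMM the members called were 4 higher and 0 lower in T169A and 4 higher and 1 lower in B6 cells, the lower one being Plau. That scaling called 1934 of all 13068 genes higher and 8106 lower in T169A, and 1996 and 8484 in B6 cells.

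The second comparison asks how cells given LPS/5z7 differed from cells given LPS alone. The same test found 5 members lower with LPS/5z7 in each genotype, all but F10, and none was higher. Among all genes 6.53% were lower and 6.5% higher in T169A cells, and 6.79% were lower and 7.03% higher in B6 cells. The members' median log2 fold change was −2.44 in T169A and −2.33 in B6 cells, against 0.02 over all genes in both.

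LPS/5z7 was also set against unstimulated cells, with the same libraries as in the other comparisons. In each genotype 4 members were higher (Plaur, Serpinb2, F3 and F10) and 1 was lower (Plau). The limit on F3 from the filter holds here too. Of all genes, 28.1% were higher and 27.5% lower in T169A cells, and 27.6% were higher and 27.9% lower in B6 cells. The 3 comparisons share libraries in pairs, so their fold changes for a gene are not independent of each other.

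How the libraries were scaled bears on the LPS comparisons. TMM factors were 0.926 to 0.959 in LPS/5z7, 0.83 to 0.86 in LPS and 1.24 to 1.28 in unstimulated libraries. With library size alone in place of TMM, the median of all genes moved to −0.61 in T169A and −0.66 in B6 cells for LPS against unstimulated. It moved to 0.17 in T169A and 0.18 in B6 cells for LPS/5z7 against LPS, and to −0.43 in T169A and −0.47 in B6 cells for LPS/5z7 against unstimulated. The split of all genes called higher and lower with LPS was 3965 and 4120 in T169A cells with TMM, against 1934 and 8106 with library size alone. In B6 cells the split was 3868 and 4372 with TMM, against 1996 and 8484. For LPS/5z7 against LPS it was 850 and 853 in T169A cells, against 2177 and 530, and 919 and 887 in B6 cells, against 2339 and 516. For LPS/5z7 against unstimulated it was 3678 and 3591 in T169A cells, against 1975 and 6999, and 3610 and 3647 in B6 cells, against 2075 and 7334.

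Plau, the urokinase gene on chromosome 14, had 61.3, 60.9 and 51.3 CPM in T169A and 61.2, 63.2 and 45.5 CPM in B6 cells given LPS/5z7. With LPS it had 268, 344 and 325 CPM in T169A and 270, 276 and 285 CPM in B6 cells. Unstimulated cells had 249, 241 and 235 CPM in T169A and 234, 282 and 260 CPM in B6 cultures. All 6 LPS/5z7 libraries thus lay below all 12 others, while LPS and unstimulated libraries overlapped in B6 cells and lay close together in T169A cells.

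Plau fell with LPS/5z7 relative to LPS, with a log2 fold change of −2.43 ± 0.13 in T169A cells (SE, edgeR adjusted p = 1.62e-09) and −2.29 ± 0.13 in B6 cells (edgeR adjusted p = 3.74e-09). Levels were 5.4-fold lower in T169A and 4.89-fold lower in B6 cells, and by p-value Plau ranked 7 of 13068 genes in both. Relative to unstimulated cells Plau was lower with LPS/5z7 by log2 −2.06 ± 0.13 in T169A (adjusted p = 2.83e-10) and −2.19 ± 0.13 in B6 cells (adjusted p = 1.39e-10). It was the one member below its unstimulated level by the test. With LPS alone the change was small, at log2 0.37 ± 0.12 in T169A (adjusted p = 0.0134) and 0.10 ± 0.12 in B6 cells (adjusted p = 0.487), and with library size alone these turned to −0.21 in T169A (adjusted p = 0.124) and −0.49 in B6 cells (adjusted p = 0.00143, called lower). The T169A call also ended without T169A LPS library 14 (log2 0.28, adjusted p = 0.0796).

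Plaur, the urokinase receptor gene on chromosome 7, had 127, 129 and 111 CPM in T169A and 132, 132 and 123 CPM in B6 cells given LPS/5z7. With LPS it had 558, 698 and 742 CPM in T169A and 589, 624 and 777 CPM in B6 cells. Unstimulated cells had 53.2, 45.2 and 48.3 CPM in T169A and 57.6, 55.1 and 52.2 CPM in B6 cultures. The 3 treatments did not overlap, with LPS highest and unstimulated lowest in both genotypes.

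Plaur rose with LPS 13.6-fold in T169A (log2 3.77 ± 0.13, adjusted p = 1.82e-13) and 12.1-fold in B6 cells (log2 3.59 ± 0.13, adjusted p = 3.06e-13). LPS/5z7 cells had 5.43-fold less than LPS cells in T169A (log2 −2.44 ± 0.12, adjusted p = 1.57e-09) and 5.14-fold less in B6 (log2 −2.36 ± 0.12, adjusted p = 1.7e-09). That difference ranked 4 of 13068 genes by p-value in T169A and 6 in B6 cells. The level with LPS/5z7 was still 2.51-fold that of unstimulated T169A cells (adjusted p = 5.22e-08) and 2.34-fold that of unstimulated B6 cells (adjusted p = 1.35e-07).

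Serpinb2, the PAI-2 gene on chromosome 1, had 13.2, 7.63 and 9.68 CPM in T169A and 11.6, 10.7 and 10.9 CPM in B6 cells given LPS/5z7. With LPS it had 75.6, 64 and 62.5 CPM in T169A and 64.9, 71.1 and 67.2 CPM in B6 cells. Unstimulated cells had 2.06, 1.22 and 2.04 CPM in T169A and 1.18, 0.473 and 0.645 CPM in B6 cultures. The treatments did not overlap, and every unstimulated T169A library was above every unstimulated B6 library, though those values rest on 31 to 50 counts in T169A and 12 to 29 in B6 libraries.

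Serpinb2 rose with LPS 38-fold in T169A (log2 5.25 ± 0.23, adjusted p = 2.55e-12) and 89.8-fold in B6 cells (log2 6.49 ± 0.25, adjusted p = 7.7e-13). With LPS/5z7 it was 6.57-fold lower than with LPS in T169A (log2 −2.72 ± 0.19, adjusted p = 5.33e-08) and 6.1-fold lower in B6 cells (log2 −2.61 ± 0.19, adjusted p = 8.06e-08). Against unstimulated cells LPS/5z7 left it 5.79-fold higher in T169A (log2 2.53 ± 0.23, adjusted p = 5.42e-08) and 14.7-fold higher in B6 cells (log2 3.88 ± 0.26, adjusted p = 1.23e-09). Serpinb2 shares 291 exon bases with Serpinb10 on the same strand, and how reads in them were counted is not given in the sources used here. Serpinb10 held 17 counts over all libraries, against 9577 for Serpinb2.

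F3, the tissue factor gene on chromosome 3, had 2.04, 1.59 and 1.1 CPM in T169A and 1.27, 2.37 and 1.78 CPM in B6 cells given LPS/5z7. With LPS it had 13.4, 13.7 and 12.2 CPM in T169A and 10.7, 11.2 and 15.7 CPM in B6 cells. Unstimulated cells had 0.165, 0.196 and 0.122 CPM in T169A and 0.0817, 0.177 and 0.108 CPM in B6 cultures, near the level that 3 counts give (0.0886 to 0.233 scaled CPM over all libraries, depending on depth). F3 was the least abundant member in every group, and its LPS libraries stood far above the others.

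Summed over libraries, F3 had 731 counts with LPS and 12 unstimulated in T169A cells, a ratio of 81.3 after scaling, with a 95% exact interval of 46.2 to 158. B6 cells had 752 and 10 counts, a ratio of 91.6 (49.5 to 192). These intervals cover counting error only. The fitted log2 fold changes were 6.29 ± 0.30 in T169A (adjusted p = 9.42e-12) and 6.52 ± 0.31 in B6 cells (adjusted p = 9.93e-12), and they depend on the small count added to low values. LPS/5z7 cells had 8.05-fold less F3 than LPS cells in T169A (log2 −3.01 ± 0.22, adjusted p = 7.18e-08) and 6.95-fold less in B6 (log2 −2.80 ± 0.22, adjusted p = 1.98e-07). The ratio of LPS/5z7 to unstimulated cells was 10.2 (5.61 to 20.4) in T169A and 13.5 (7.05 to 29.1) in B6.

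F10, the factor X gene on chromosome 8, had 21.2, 15.5 and 15.9 CPM in T169A and 27.8, 23.7 and 20.6 CPM in B6 cells given LPS/5z7. With LPS it had 27.5, 21.9 and 20.4 CPM in T169A and 33, 35.2 and 29.2 CPM in B6 cells. Unstimulated cells had 4.37, 3.53 and 2.45 CPM in T169A and 3.92, 6.44 and 4.73 CPM in B6 cultures. Both treatments lay above unstimulated cells in every library, while LPS/5z7 and LPS overlapped in T169A cells and were narrowly apart in B6 cells.

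F10 rose with LPS 6.76-fold in T169A (log2 2.76 ± 0.21, adjusted p = 5.03e-09) and 6.39-fold in B6 cells (log2 2.67 ± 0.20, adjusted p = 4.17e-09). With LPS/5z7 it was 5.1-fold above unstimulated in T169A (log2 2.35 ± 0.21, adjusted p = 5.31e-08) and 4.72-fold above it in B6 cells (log2 2.24 ± 0.20, adjusted p = 5.79e-08). The difference between LPS/5z7 and LPS did not pass the test, at log2 −0.41 with a 95% interval of −0.81 to −0.01 in T169A (adjusted p = 0.191) and −0.44 with an interval of −0.83 to −0.05 in B6 cells (adjusted p = 0.14). These intervals lie above those of Plau, Plaur, Serpinb2 and F3, whose upper ends for the same comparison ran from −2.55 to −2.02. The missed call for F10 depended on the fit. F10 was called lower in B6 cells when the compared groups were fitted alone (log2 −0.45, edgeR adjusted p = 0.0218). Blocking libraries by their numbering also gave a call (edgeR adjusted p = 0.0423 in T169A, 0.0278 in B6), though no label ties those libraries together. In the other settings tried F10 was not called.

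Thbs1, the thrombospondin 1 gene on chromosome 2, had 153, 103 and 97.3 CPM in T169A and 130, 150 and 99.5 CPM in B6 cells given LPS/5z7. With LPS it had 357, 252 and 215 CPM in T169A and 326, 329 and 214 CPM in B6 cells. Unstimulated cells had 231, 165 and 158 CPM in T169A and 192, 192 and 76.1 CPM in B6 cultures. Libraries 7, 8 and 9 were the lowest of their B6 groups and libraries 10, 11 and 12 the highest of their T169A groups. LPS/5z7 libraries lay below LPS libraries in both genotypes, and LPS and unstimulated libraries overlapped in T169A cells.

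Thbs1 fell with LPS/5z7 relative to LPS by log2 −1.22 ± 0.31 in T169A (adjusted p = 0.0129) and −1.20 ± 0.30 in B6 cells (adjusted p = 0.0144). That is 2.33-fold lower in T169A and 2.29-fold lower in B6 cells. The T169A call ended without T169A LPS library 11 (log2 −0.99, adjusted p = 0.0666), T169A LPS/5z7 library 15 (−1.13, 0.0663) or T169A LPS/5z7 library 18 (−1.11, 0.0712). The B6 call ended without B6 LPS library 5 (log2 −1.12, adjusted p = 0.0537) or B6 LPS/5z7 library 9 (−1.07, 0.0707).

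With LPS alone Thbs1 rose in B6 cells by log2 0.92 ± 0.30 (adjusted p = 0.0139). The value was 0.60 without B6 unstimulated library 7 (adjusted p = 0.0488) and 0.82 without B6 LPS library 5 (adjusted p = 0.0511). In T169A cells the change with LPS was log2 0.57 ± 0.30 (adjusted p = 0.108). That missed call depended on the fit. Thbs1 was called higher there with the compared groups fitted alone (0.59, edgeR adjusted p = 0.0265). Blocking libraries by their numbering also gave a call (0.56, edgeR adjusted p = 0.00178), though no label ties those libraries together. Against unstimulated cells, LPS/5z7 gave log2 −0.65 ± 0.30 in T169A (adjusted p = 0.0797) and −0.28 ± 0.30 in B6 cells (adjusted p = 0.456), and these passed the test without T169A LPS/5z7 library 12 (−0.90, adjusted p = 0.0384) and without B6 unstimulated library 7 (−0.60, adjusted p = 0.0492). The same block called the T169A value lower too (−0.66, edgeR adjusted p = 0.000655). Platelets hold much thrombospondin 1, so the 7 megakaryocyte and platelet markers were summed. They came to 240 to 294 CPM in T169A and 184 to 210 CPM in B6 cells with LPS/5z7, to 233 to 360 CPM in T169A and 176 to 297 CPM in B6 cells with LPS, and to 170 to 194 CPM in T169A and 132 to 266 CPM in B6 unstimulated cells. In B6 unstimulated library 7, the lowest in Thbs1, the sum was 266 CPM, against 132 and 134 CPM in the other 2. Most of the sum was Pf4 (124 to 355 CPM). Gp1ba and Gp1bb had 0 counts in all libraries, and Gp9 had 1 count over all of them, so the sum mainly follows Pf4. Any part of platelets in the Thbs1 result was not tested.

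**Figure D2:**
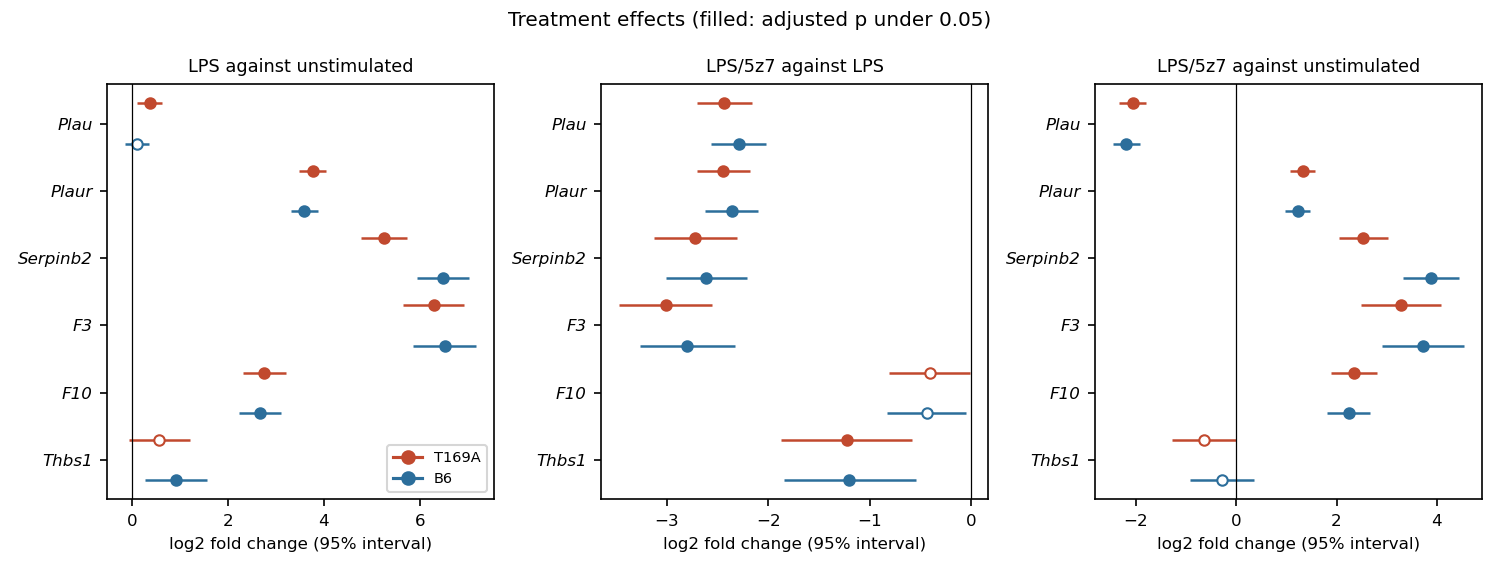
Log2 fold change (x axis, a different range in each panel) of the 6 genes in 3 comparisons of treatments, red for T169A and blue for B6, with 95% intervals from edgeR. Filled points passed an adjusted p of 0.05. Plau, Plaur, Serpinb2 and F3 lie between −3.01 and −2.29 for LPS/5z7 against LPS while F10 lies at −0.41 and −0.44. The LPS values of Plau turn negative (−0.21 and −0.49) with library size alone in place of TMM.

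Whether levels differed between T169A and B6 cells was tested for each member in each treatment. No member passed in LPS/5z7, LPS or unstimulated cells with edgeR. Of all genes 0.161% passed with LPS/5z7, 0.222% with LPS and 0.214% in unstimulated cells. Members at an unadjusted edgeR p under 0.05 numbered 1 with LPS/5z7 (F10), 1 with LPS (F10) and 2 in unstimulated cells (Serpinb2 and F10). The share of all genes at that level was not counted, so these counts are no sign of a difference. By p-value F10 ranked 472, 340 and 391 of 13068 genes in that order, and Serpinb2 ranked 63 in unstimulated cells. DESeq2 called 0, 0 and 1 members in the same order. The member that DESeq2 called was Serpinb2.

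Serpinb2 averaged 1.77 ± 0.481 CPM in T169A and 0.768 ± 0.371 CPM in B6 unstimulated cells (SD, n = 3 each). The log2 difference of 1.23 ± 0.32 had a 95% interval of 0.56 to 1.91, with an adjusted p of 0.257 by edgeR and 0.0106 by DESeq2. Without B6 unstimulated library 7 it was 1.17 (edgeR adjusted p = 0.294). With LPS the genotypes had 67.4 ± 7.17 CPM in T169A and 67.7 ± 3.14 CPM in B6 cells, a log2 difference of −0.01 with an interval of −0.37 to 0.36. With LPS/5z7 they had 10.2 ± 2.82 CPM in T169A and 11.1 ± 0.476 CPM in B6 cells, a difference of −0.11 with an interval of −0.53 to 0.30.

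The mean of F10 was below that of B6 in T169A cells in each condition, without passing the test. It averaged 17.5 ± 3.2 CPM in T169A and 24 ± 3.59 CPM in B6 cells with LPS/5z7, a log2 difference of −0.45 (interval −0.85 to −0.05, edgeR adjusted p = 0.766). With LPS it averaged 23.3 ± 3.78 CPM in T169A and 32.5 ± 3.02 CPM in B6 cells, a difference of −0.48 (−0.87 to −0.09, adjusted p = 0.747), and the libraries did not overlap. In unstimulated cells it averaged 3.45 ± 0.964 CPM in T169A and 5.03 ± 1.29 CPM in B6 cells, a difference of −0.56 (−1.04 to −0.09, adjusted p = 0.788).

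For Plau and Plaur the intervals of the T169A minus B6 log2 difference were narrow. They ran from −0.35 to 0.43 for Plau and from −0.42 to 0.25 for Plaur over the 3 treatments. Those of F3 ran from −0.68 to 0.46 with either treatment and from −0.96 to 1.58 in unstimulated cells, where counts were low. Those of Thbs1 ran from −0.74 to 0.90. A p that misses the threshold does not show that the genotypes were alike, and these intervals give the differences that remain possible.

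**Figure D3:**
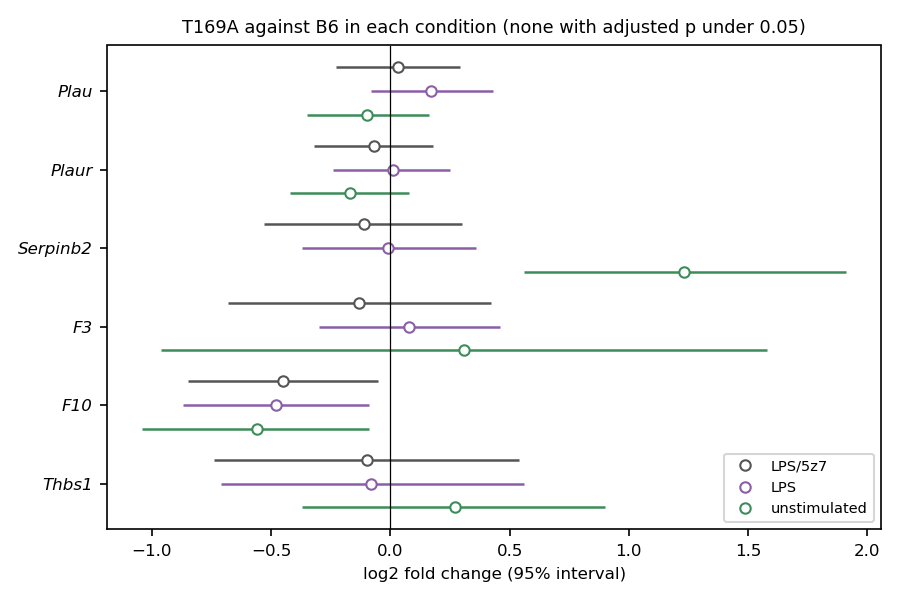
Log2 difference T169A minus B6 (x axis) of the 6 genes with LPS/5z7, with LPS and in unstimulated cells, with 95% intervals from edgeR. All points are open because none passed an adjusted p of 0.05. Serpinb2 in unstimulated cells (1.23) lies farthest from 0, and the 3 F10 values lie between −0.56 and −0.45.

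Whether the effect of a treatment itself differed between the genotypes was tested as an interaction. For the effect of LPS, of LPS/5z7 against LPS and of LPS/5z7 against unstimulated, edgeR called 0 members and 0.0%, 0.0% and 0.0% of all genes. DESeq2 called 0 members in each. Members at an unadjusted edgeR p under 0.05 numbered 1 for LPS, 0 for LPS/5z7 against LPS and 1 for LPS/5z7 against unstimulated, both times Serpinb2. Its p-value ranked 16 for LPS and 12 for LPS/5z7 against unstimulated of 13068 genes, none of which passed. The share of all genes at the unadjusted level was not counted, so these counts are no sign of a difference. The log2 change of Serpinb2 with LPS was 5.25 in T169A and 6.49 in B6 cells, and the T169A minus B6 difference was −1.24 (95% interval −2.01 to −0.47, edgeR adjusted p = 0.916). For LPS/5z7 against unstimulated it was −1.35 (−2.14 to −0.56, adjusted p = 0.83). For LPS/5z7 against LPS it was −0.11 (−0.66 to 0.44, adjusted p = 1).

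The rest of the pathway was followed in a list of 54 genes of fibrinolysis, coagulation and thrombospondin binding, 26 of which passed the filter. With LPS 9 were higher and 3 lower in T169A cells, and 11 were higher and 3 lower in B6 cells, of the 26 tested. Over all genes the shares were 30.3% higher and 31.5% lower in T169A and 29.6% higher and 33.5% lower in B6 cells, so the count of higher genes in T169A is close to the general share. The list's median log2 fold change was 0.21 in T169A and 0.05 in B6 cells. With LPS/5z7 against LPS, 2 were higher and 4 lower in T169A cells, and 2 were higher and 2 lower in B6 cells, with medians of −0.09 in T169A and −0.04 in B6 cells, against 0.02 over all genes in both. Of all genes, 6.5% were higher and 6.53% lower in T169A and 7.03% higher and 6.79% lower in B6 cells. Against unstimulated cells, LPS/5z7 gave 9 higher and 4 lower in T169A and 10 higher and 3 lower in B6 cells, with medians of 0.10 in T169A and 0.06 in B6 cells, beside 28.1% higher and 27.5% lower of all genes in T169A and 27.6% higher and 27.9% lower in B6 cells. Under library size alone 8 were higher and 12 lower with LPS in T169A cells and 9 higher and 16 lower in B6 cells. Over all 13068 genes that scaling gave 1934 higher and 8106 lower in T169A and 1996 and 8484 in B6 cells. For LPS/5z7 against LPS it gave 5 higher and 3 lower of the list in T169A and 4 and 2 in B6 cells. All genes split 2177 and 530 in T169A and 2339 and 516 in B6 cells. For LPS/5z7 against unstimulated it gave 8 higher and 12 lower of the list in T169A and 8 and 10 in B6 cells. All genes there split 1975 and 6999 in T169A and 2075 and 7334 in B6 cells. Of list genes called with TMM, Cd36 and F13a1 changed sign with LPS in B6, and F13a1 for LPS/5z7 against unstimulated in B6. Sign changes of genes not called were not counted.

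Plat, the gene of tissue plasminogen activator, which like urokinase makes plasmin, rose with LPS to 73 ± 9.96 CPM in T169A and 69.5 ± 1.67 CPM in B6 cells, against 0.106 ± 0.112 CPM in unstimulated T169A and 0.0709 ± 0.0414 CPM in unstimulated B6 cells (SD, n = 3 each). The ratio of summed counts after scaling was 660 in T169A (95% exact interval 335 to 1529) and 896 in B6 cells (411 to 2443), resting on 8 and 6 unstimulated counts. Like F3, Plat entered the test only through its treated groups, so its call as higher is not independent of the filter. With LPS/5z7 it averaged 38.1 ± 5.42 CPM in T169A and 37.2 ± 2.27 CPM in B6 cells, lower than with LPS by log2 −0.94 ± 0.14 (adjusted p = 0.00018) in T169A and −0.90 ± 0.14 (adjusted p = 0.000278) in B6. The 2 plasminogen activators thus differed in pattern, with Plau present before LPS and Plat near the 3-count level.

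Plg, the gene of plasminogen, had 0 counts in all 18 libraries, which allows up to 3 counts, or 0.0886 to 0.233 CPM depending on the library. Anxa2, part of the surface complex that binds plasminogen and tissue plasminogen activator, rose with LPS by log2 1.08 in T169A (adjusted p = 7.87e-09) and 0.93 in B6 cells (adjusted p = 5.52e-08).

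On the anticoagulant side, Thbd, the thrombomodulin gene, fell with LPS to 2.69 ± 0.598 CPM in T169A and 1.94 ± 0.503 CPM in B6 cells, against 29.6 ± 4.85 CPM in unstimulated T169A and 23.3 ± 1.59 CPM in unstimulated B6 cells. The log2 fold change was −3.47 in T169A (adjusted p = 3.86e-11) and −3.64 in B6 cells (adjusted p = 3.5e-11). LPS/5z7 left it at 1.53 ± 0.343 CPM in T169A and 1.29 ± 0.245 CPM in B6 cells, further from the unstimulated level, and the difference from LPS passed in T169A (log2 −0.83, adjusted p = 0.0264; with library size alone adjusted p = 0.0613) and not in B6 cells. Procr, the endothelial protein C receptor gene, rose with LPS by log2 1.91 in T169A (adjusted p = 1.16e-08) and 1.94 in B6 cells (adjusted p = 9.22e-09), and was lower with LPS/5z7 than with LPS by −0.81 in T169A (adjusted p = 0.00157) and −0.82 in B6 cells (adjusted p = 0.00141). Gas6, a vitamin K-dependent ligand of the receptors Axl and Mertk, was lower with LPS by −0.28 in T169A (adjusted p = 0.0118) and −0.36 in B6 cells (adjusted p = 0.00199).

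Fgl2, a fibrinogen-like protein with reported prothrombinase activity, moved opposite to tissue factor between LPS/5z7 and LPS. It averaged 81.9 ± 5.87 CPM in T169A and 98.2 ± 32 CPM in B6 cells with LPS/5z7, against 35.3 ± 7.02 CPM in T169A and 39.9 ± 5.66 CPM in B6 cells with LPS. It was higher by log2 1.21 ± 0.18 in T169A (adjusted p = 0.000256) and 1.30 ± 0.18 in B6 cells (adjusted p = 0.000126). Ggcx, the vitamin K-dependent carboxylase that clotting factors such as factor X need, was lower with LPS by −1.03 in T169A (adjusted p = 1.41e-06) and −0.66 in B6 cells (adjusted p = 0.000177). It was higher with LPS/5z7 than with LPS by 0.48 in T169A (adjusted p = 0.0205) and 0.43 in B6 cells (adjusted p = 0.0317). Cd47, a receptor of thrombospondin 1, was higher than in unstimulated cells with both treatments. The log2 change with LPS/5z7 was 0.97 in T169A (adjusted p = 2.96e-08) and 0.94 in B6 cells (adjusted p = 4.88e-08), and with LPS it was 0.89 in T169A (adjusted p = 7.25e-08) and 0.84 in B6 cells (adjusted p = 1.48e-07). The difference between LPS/5z7 and LPS was 0.08 in T169A and 0.10 in B6 cells and did not pass. Tgm2, the crosslinking transglutaminase, rose with LPS by 1.18 in T169A (adjusted p = 4.73e-08) and 1.19 in B6 cells (adjusted p = 4.49e-08).

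Between the genotypes, 1 of the 26 tested pathway genes passed, with LPS, where 0.222% of all genes did. It was Thbs2, which is named after its values were seen. Thbs2 reached the level the filter asks for in 2 of 3 LPS and 2 of 3 unstimulated T169A libraries and in no B6 library, so it was tested only because it was high in T169A cells, and its call is no support for a difference. It had 0.735 ± 0.245 CPM in T169A and 0.0924 ± 0.0616 CPM in B6 cells (log2 2.90 ± 0.53, edgeR adjusted p = 0.0214), on 7 to 21 counts per T169A library and 1 to 4 per B6 library. Fibroblast markers, which include collagen genes, summed to 5.24 to 12.2 CPM in T169A and 3.48 to 5.21 CPM in B6 cells with LPS, and their part in this difference was not tested.

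**Figure D4:**
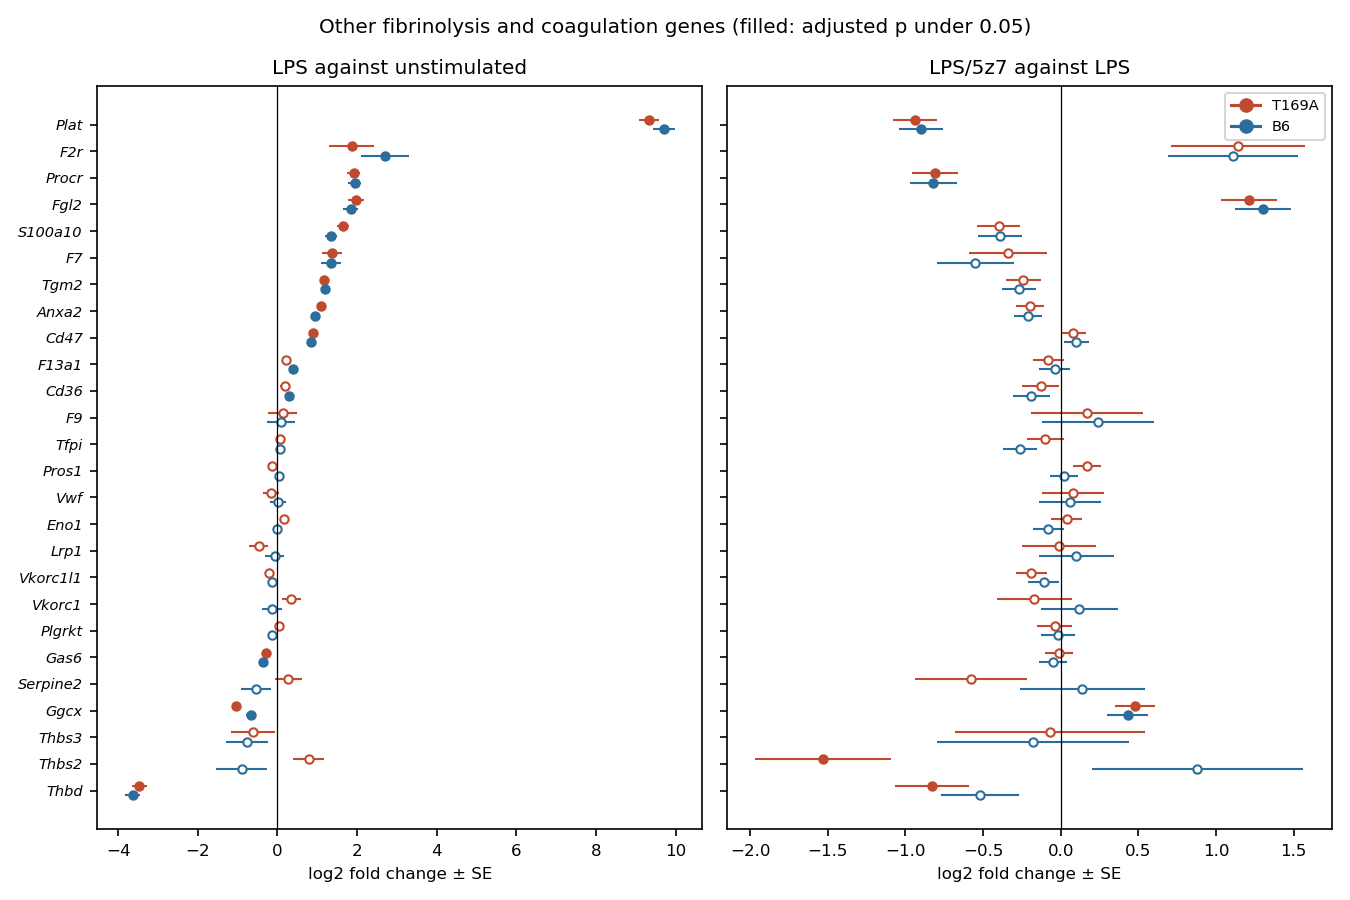
Log2 fold change with SE (x axis) of the 26 pathway genes tested, ordered by the B6 value with LPS, for LPS against unstimulated (left) and LPS/5z7 against LPS (right, on a narrower axis), red for T169A and blue for B6. Filled points passed an adjusted p of 0.05. Plat leads on the left, Thbd is lowest there, and Fgl2 is the clearest rise on the right. Among the filled points, the B6 LPS values of Cd36 and F13a1 turn negative with library size alone. Open points were not checked for such changes.

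Across the 18 libraries the members' log2 levels were compared with each other and with 9662 other genes, as a description only, since the libraries share treatments. Plaur, Serpinb2 and F3 went together, with Pearson's r of 0.95 for Plaur and Serpinb2, 0.98 for Plaur and F3 and 0.98 for Serpinb2 and F3. Plau had r of 0.26 with Plaur, 0.04 with Serpinb2 and −0.27 with F10. The gene most like Plau was Osm (0.990), a cytokine gene, followed by Spry2 (0.979) and Gdf15 (0.977). Those most like Plaur were Errfi1 (0.995), Maff (0.995) and Slc2a1 (0.994), and those most like Serpinb2 were Ccr3, Cldnd1 and Psd4 (0.985 each). F3 was most like Mxd1, Hk2 and C9orf72 (0.989 each). F10 was most like Gm44165 and Ifi204 (0.987 each) and M6pr (0.986), and Thbs1 was most like Atp6v1a (0.963), Spty2d1 (0.949) and Sfmbt1 (0.934). With library size alone in place of TMM, Osm, Maff, Cldnd1, C9orf72, Ifi204 and Emp1 came first for Plau, Plaur, Serpinb2, F3, F10 and Thbs1.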

How the data were processed

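Raw counts per gene were deposited by the authors, for which the tools Trim Galore, STAR and featureCounts and the build GRCm39 are listed, per the submitters' processing notes. Versions, strand setting and treatment of multiply matching reads are not given in the sources used here. The library kit was directional, per the labels' protocols, but without the strand setting used in counting, reads in overlapping genes remain uncertain. Serpinb2 overlaps Serpinb10 on the same strand, where a directional kit does not separate reads. Thbs1 shares 208 exon bases with the antisense Gm29233, which held 1 count.

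Columns are named by group with a running number and sample titles by letter, so columns were tied to groups and libraries are named by running number. No column was left out and every row names a gene ID. Symbols and exon lengths came from GENCODE M21 (GRCm38), which named 52029 of 56953 IDs (91.4%, holding 99.8% of counts). Genes were filtered by filterByExpr (13068 kept), scaled by TMM and tested with edgeR 4.0.16 (robust quasi-likelihood, R 4.3.3, limma 3.58.1) on 6 group means over 18 libraries, with Benjamini-Hochberg adjustment over all genes tested and a threshold of 0.05. SE is the absolute log2 fold change over the square root of F. Correlations used log2 CPM with a prior count of 2. The fit was tested on simulated data. Alternatives were DESeq2 1.42.0, its size factors in edgeR, library size alone, no filter on low counts, at least 1 CPM in at least 3 libraries, the compared groups alone, each library left out and a replicate block. Promoter windows came from RefSeq (GRCm38.p6). Figures used Python 3.11.15 and matplotlib 3.10.9.

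The members and gene lists were chosen with earlier results of these data known. All 6 members are named. Of the pathway list, the 4 genes per direction with the smallest adjusted p in each treatment comparison could be named, with Plat and Plg in any case; an item of the list is not reported here. The 3 genes most like a member were those with the highest r among tested genes reaching 5 CPM in 3 libraries. Depth was 14.6 to 30.4 M counts, and 3 counts equal 0.0886 to 0.233 TMM-scaled CPM.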

Additional observations from a re-analysis of the deposited data

How the results depend on the processing

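Of 1025 member values under alternatives, 1001 kept their direction and their side of the threshold or were called in neither fit, 11 lost a call, 11 gained one and 2 turned round. Called in neither fit were 623 of the 1001, and 54 of those changed sign. The 2 that turned round, each called in 1 of the fits, were those of Plau with LPS under library size alone, −0.21 in T169A and −0.49 in B6 cells. Counts of members called were judged by a wide band of 1.5 times the reported count. In it 4 or 6 passes beside 5, and 0 passes beside 0. Within this band 170 of 171 counts held, which says little of stability. The exception was T169A against B6 unstimulated, where DESeq2 called 1 (Serpinb2). Thbs1 lost its calls for LPS/5z7 against LPS without a filter on low counts (adjusted p = 0.0829 in T169A, 0.075 in B6), and its B6 call for LPS under library size alone (0.33, adjusted p = 0.299) or no filter (adjusted p = 0.0709). Under library size alone it was called for LPS/5z7 against unstimulated (−1.07 in T169A, −0.70 in B6), and with LPS in T169A cells it was called with the compared groups alone (0.59, adjusted p = 0.0265). The cause was not tested. Sample titles repeat a letter across the 3 treatments of a genotype, but the columns carry running numbers and no letter. The running numbers follow the same order of genotype and treatment as the listed samples, so consecutive numbers may share a letter. Sets of 3 consecutive numbers had correlations of −0.05 to 0.46 (18 pairs), against −0.45 to 0.42 for other sets (36 pairs), and a library correlated best with its own set in 24 of 36 checks. The order and the correlations are hints, but no label ties a number to a letter. The main tests therefore took the libraries as unpaired. With these sets as a replicate block the members called numbered 6 and 5 with LPS, 6 and 6 for LPS/5z7 against LPS, and 6 and 5 for LPS/5z7 against unstimulated, in T169A and B6 cells. The block also raised the calls over all 13068 genes. These were 8651 and 8788 with LPS, against 8085 and 8240 in the main fit. For LPS/5z7 against LPS they were 2340 and 2447, against 1703 and 1806. For LPS/5z7 against unstimulated they were 7951 and 7921, against 7269 and 7257. Thbs1 in T169A cells was called with the block for LPS (adjusted p = 0.00178) and for LPS/5z7 against unstimulated (0.000655). F10 for LPS/5z7 against LPS was called with the block (adjusted p = 0.0423 in T169A, 0.0278 in B6), and in B6 with the compared groups alone (0.0218). Over all genes, T169A against B6 with LPS/5z7 gave 223 calls with the compared groups alone, 45 with DESeq2 and 39 with no filter, against 21. With LPS these were 13 and 47, against 29, and unstimulated 7 and 60, against 28. Leaving out 1 library gave 15 to 19, 16 to 33 and 22 to 46 calls in these 3 comparisons (most unstimulated without library 7 or 10, fewest with LPS without library 2, 5, 14 or 17). For LPS/5z7 against LPS, leaving out 1 library gave 1009 to 1634 calls in T169A cells, against 1703, and 1159 to 1275 in B6 cells, against 1806, with 1102, 1078 and 1009 calls without libraries 14, 15 and 18 and 1159 and 1169 without libraries 5 and 6. There library size alone gave 2707 and 2855. Unstimulated F3 rests on 2 to 6 counts per library, which limits its precision.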
